A study of Homo sapiens with 9 samples.

Results

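A set of 10 protein coding genes that are not histone genes was examined because these genes had been listed as low against input in RNA immunoprecipitates (RIPs) of both the nuclear and the cytoplasmic poly(A) binding protein. These 10 genes, out of 51105 gene identifiers present in both deposited tables, were chosen by their measured RIP over input ratios. Their ratios against input are therefore a description, with no test, and only the comparison of the RIPs with each other was tested. The genes were *NOMO1*, *NOMO2*, *NOMO3*, *TMEM107*, *B3GALT4*, *LGR6*, *FAM83E*, *CLSTN2*, *TTC34* and *TMEM242*. All samples came from HEK293T, an established human embryonic kidney cell line with wildtype genotype, crosslinked with 0.1% formaldehyde for 10 min. Lysate from 3 biological replicates was split between an anti-PABPN and an anti-PABPC antibody, which gave 3 PABPN RIP, 3 PABPC RIP and 3 Input libraries, the last without immunoprecipitation. Ribosomal RNA was depleted from total RNA before sequencing, with single reads of 75 nt. Immunoprecipitations with isotype control IgG yielded, per the study's description, too little RNA for a library, so no control antibody library enters the values. In a bulk lysate fewer cells with a transcript and less transcript per cell cannot be told apart.

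Poly(A) binding proteins coat the tail that is added to the end of most mRNAs. PABPN acts mainly in the nucleus, where it helps the tail to be made, and PABPC acts mainly in the cytoplasm, where it accompanies mRNAs during translation. An mRNA low in both RIPs is unusual, and the best known mRNAs without a poly(A) tail are those of the replication-dependent histone genes, which end in a stem-loop.

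The deposited tables give, for each gene, a mean over 6 libraries, called baseMean, in which each library's read count is divided by a size factor that corrects for its depth. Whole read counts of the 9 libraries were solved from these means where both were below 1000, as described under the processing of the data. The 8 genes below this limit, called the 8 solved genes, have reads per library. *NOMO1* (baseMean 1715 with PABPN RIP and 2241 with PABPC RIP) and *TMEM242* (4844 and 4046) were above this limit and have pooled values only. The letters A, B and C below name libraries within a group and carry no replicate number. Normalized reads are read counts divided by the size factors, on a scale shared by all 9 libraries. The reads on all solved genes summed to between 1082169 and 2050901 per library, which is a part of each library and not its depth.

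The *NOMO* genes are shown first by sequence, because a read of 75 bases can often not tell them apart. They encode NODAL modulators, membrane proteins of the endoplasmic reticulum that work with a translocon for proteins with several membrane spans. All lie on chromosome 16 (hg38, GENCODE release 44): *NOMO1* at chr16:14833721-14896157 on the plus strand, *NOMO3* at chr16:16232506-16300806 on the plus strand and *NOMO2* at chr16:18417325-18562211 on the minus strand. Over the 31 coding exons of *NOMO1*, 3666 bases in all, *NOMO2* differed at 17 positions and *NOMO3* at 16, while *NOMO2* and *NOMO3* differed from each other at 9. In 18 of these exons the 3 genes had the same sequence. The exon window of 75 bases with the most differences, in exon 13 of *NOMO1*, held 3 positions that are not the same in all copies. They are given in capitals below, 5′ to 3′ on the strand of each gene, at chr16:14864592-14864666 for *NOMO1*, chr16:18531526-18531600 for *NOMO2* and chr16:16263081-16263155 for *NOMO3*.
NOMO1: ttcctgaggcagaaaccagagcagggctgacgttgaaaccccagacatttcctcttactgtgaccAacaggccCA
NOMO2: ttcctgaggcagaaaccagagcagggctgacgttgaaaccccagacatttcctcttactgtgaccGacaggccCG
NOMO3: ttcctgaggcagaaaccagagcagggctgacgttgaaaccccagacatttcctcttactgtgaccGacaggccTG

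The longest coding exon without any difference, exon 25 of *NOMO1* with 142 bases, shows the other extreme. Its first 75 bases, at chr16:14881544-14881618 in *NOMO1*, chr16:18514409-18514483 in *NOMO2* and chr16:16280189-16280263 in *NOMO3*, read the same in all 3 genes, so a read from here fits each of them equally.
All 3 NOMO genes: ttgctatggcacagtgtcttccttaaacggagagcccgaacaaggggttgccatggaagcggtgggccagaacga

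Every 75-base window of the 10 genes was then looked up in both strands of the hg38 chromosomes. Inside exons, 70.4% of the windows of *NOMO1*, 87.7% of *NOMO2* and 92.9% of *NOMO3* occurred again elsewhere without a mismatch. Windows found in all 3 *NOMO* genes made up 60.9%, 58.0% and 52.8% of these exon windows, respectively. *NOMO2* and *NOMO3* were the closest pair, with 83.4% of the exon windows of *NOMO2* found in *NOMO3*. The other 7 genes had 0% to 0.333% of exon windows with a copy. In *TTC34* the introns were repeated instead, and 50.3% of the windows of its whole span had a copy against 0% inside exons. The study's methods name no option for counting reads that align to several places, and do not state outright that such reads were left out. For the long reads of another experiment they say that the counting program usually recognizes such reads by a tag. If they were left out, the *NOMO* reads come from stretches without an exact copy. The part of paralog reads in the values below was not tested.

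**Figure D1:**
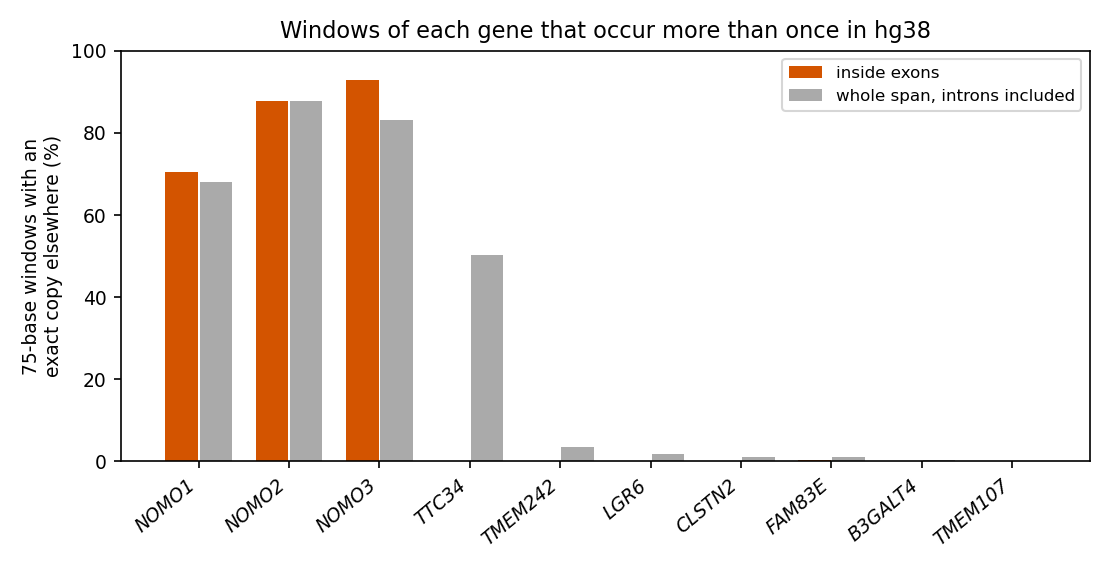
Share of 75-base windows (%, y axis) that occur more than once in hg38, for each of the 10 genes (x axis), inside exons (orange) and over the whole span with introns (gray). The *NOMO* genes lie between 68.0% and 92.9%, *TTC34* reaches 50.3% over its span only, and the other 6 genes lie at or below 3.57%.

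The 8 solved genes were lower in every RIP library than in every Input library, in both RIPs. Over all genes tested this held for 16.6% in PABPN RIP, 41.7% in PABPC RIP and 9.24% in both, and since the genes were chosen for low ratios nothing is read from their count. The read counts of the *NOMO* pair show the size of this. *NOMO2* had 601, 612 and 641 reads in Input A, B and C, 292, 294 and 192 reads in PABPN RIP A, B and C, and 299, 249 and 184 reads in PABPC RIP A, B and C. After normalization these were 560 ± 62.2 (mean ± SD, n = 3) in Input, 208 ± 43.4 in PABPN RIP and 261 ± 24.4 in PABPC RIP, so that the highest RIP library, at 283, lay below the lowest Input library, at 493. The log2 ratio over input was -1.44 ± 0.17 (SE) in PABPN RIP and -1.10 ± 0.12 in PABPC RIP. *NOMO3* had 489, 496 and 541 reads in Input, 244, 197 and 170 in PABPN RIP, and 267, 192 and 160 in PABPC RIP. Its normalized means were 461 ± 59.4, 163 ± 21.6 and 220 ± 17.1, and its log2 ratios were -1.50 ± 0.15 for PABPN RIP and -1.06 ± 0.13 for PABPC RIP. By the authors' size factors both genes were lower by more than 2-fold in each RIP, and PABPC RIP lay just beyond that limit. With median-of-ratios factors *NOMO2* (-0.82) and *NOMO3* (-0.78) were short of 2-fold in PABPC RIP, as was *NOMO3* without Input C (-0.97). The ratio of *NOMO2* to *NOMO3* reads lay between 1.12 and 1.49 in the 9 libraries, with Input at 1.19 to 1.23. With the reads of both genes summed, a setting chosen after seeing the data, the log2 ratios were -1.47 and -1.08.

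For *NOMO1* only a lower bound of the PABPC RIP ratio is fixed. Its pooled means fix the sum of the Input and PABPN RIP means at 2933 normalized reads, and the sum of the Input and PABPC RIP means at 4483. The Input mean can therefore not exceed 2933, and PABPC RIP was at least 52.9% of Input, a log2 ratio of at least -0.92, even if PABPN RIP had held no read. A 2-fold loss from PABPC RIP is not possible with these values, so the description of *NOMO1* as low in both RIPs by that limit goes against the pooled means. Were *NOMO1* at the 2-fold limit in PABPN RIP, its Input mean would be 1955 and its PABPC RIP mean 2528, which is a log2 ratio of 0.37. The difference of PABPN RIP minus PABPC RIP, in which the Input cancels, was -1550 normalized reads. The PABPC RIP mean of *NOMO1* was thus above its PABPN RIP mean, as for *NOMO2* (208 against 261) and *NOMO3* (163 against 220). No error can be given for these pooled values. The lower bound of -0.92 is close to the PABPC RIP ratios of *NOMO2* (-1.10 ± 0.12, SE) and *NOMO3* (-1.06 ± 0.13). It therefore does not by itself set *NOMO1* apart from them.

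**Figure D2:**
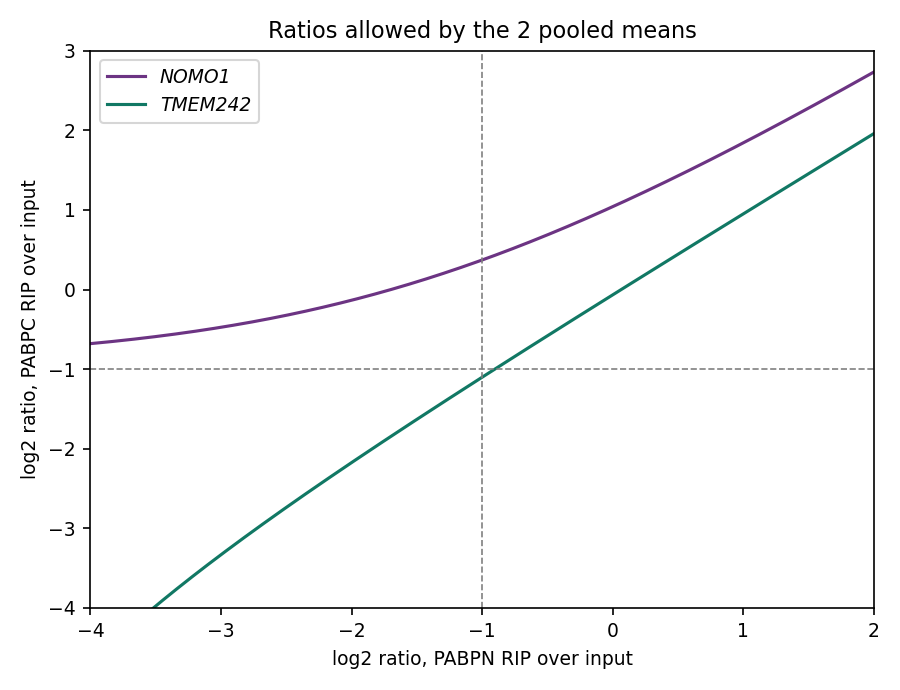
Log2 ratio of PABPC RIP over input (y axis) that the pooled means allow for each log2 ratio of PABPN RIP over input (x axis), for *NOMO1* (purple) and *TMEM242* (green). The dashed lines mark -1, a 2-fold loss. The line of *NOMO1* stays above -0.92 throughout, while the line of *TMEM242* enters the lower left corner.

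*TMEM242*, whose product helps to assemble mitochondrial ATP synthase and complex I, is the other gene without reads per library. It lies at chr6:157289025-157323601 on the minus strand. Its pooled means fix the sums at 8282 normalized reads for Input with PABPN RIP and at 8093 for Input with PABPC RIP. The PABPN RIP mean exceeded the PABPC RIP mean by 190, a small difference beside these sums. At the 2-fold limit in PABPN RIP, the Input mean would be 5521, the PABPC RIP mean 2571 and the log2 ratio over input -1.10. A 2-fold loss from both RIPs is thus allowed by the pooled means but is not fixed by them.

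*TMEM107* encodes a protein of the ciliary transition zone, the gate at the base of the cilium. It lies at chr17:8172457-8176399 on the minus strand. It had 1034, 1022 and 1087 reads in Input, 476, 433 and 563 in PABPN RIP, and 606, 308 and 257 in PABPC RIP. PABPC RIP A, at 541 normalized reads, stood above the other PABPC RIP libraries, at 350 and 328, and all lay below the lowest Input library at 848. Means were 948 ± 98.2 (SD, n = 3) in Input, 396 ± 62.7 in PABPN RIP and 406 ± 117 in PABPC RIP, and the log2 ratios were -1.27 ± 0.13 (SE) and -1.25 ± 0.18.

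*TMEM107* hosts a small RNA. *SNORD118*, the gene of U8, a box C/D small nucleolar RNA needed for ribosome formation, lies on the same strand at chr17:8173454-8173587, inside the 3′ untranslated region of the canonical transcript. Its 134 bases make up 3.40% of the span of *TMEM107*. *SNORD118* has no row in the tables as used here. According to the methods, stretches shared by overlapping genes were removed before counting, while the deposited length of *TMEM107*, 3943 bases, equals its whole span. Per kilobase of exon, with intron reads included, *TMEM107* had the highest Input level of the 8 solved genes, 241 normalized reads, followed by *NOMO2* at 82.3 and *NOMO3* at 56.0. These levels were not corrected for exon windows with a copy elsewhere, 87.7% in *NOMO2*, 92.9% in *NOMO3* and 0% in *TMEM107*. If reads from such windows were not counted, this order may not hold. Gene totals do not show where in the gene the reads lie, so the part of U8 reads in *TMEM107* was not tested. For comparison, 2 box C/D small nucleolar RNA genes with rows of their own were among the genes lower in both RIPs. They were named after their values were seen, so their low ratios follow from this choice. Other small nucleolar RNA genes were not listed, and nothing is read from these 2 about U8. *SNORD13* had log2 ratios of -4.07 ± 0.18 in PABPN RIP and -3.06 ± 0.26 in PABPC RIP, and *SNORD3B-2* had -1.17 ± 0.27 and -2.52 ± 0.41. The neighbors of *TMEM107* on the same strand were not lower in PABPC RIP. *VAMP2*, downstream by 8911 bases, rose in PABPN RIP (log2 ratio 1.45 ± 0.13, limma adjusted p 8.15e-05) and in PABPC RIP (1.60 ± 0.10, adjusted p 6.30e-07), and *BORCS6*, upstream by 11946 bases, rose in PABPC RIP (1.94 ± 0.10, adjusted p 2.74e-07), with -0.59 ± 0.16 in PABPN RIP (adjusted p 0.0186).

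*B3GALT4* encodes a galactosyltransferase of ganglioside synthesis and lies at chr6:33277123-33284832 on the plus strand. It had 115, 113 and 75 reads in Input, 57, 28 and 26 in PABPN RIP, and 39, 29 and 34 in PABPC RIP. Means were 90.6 ± 17.0 (SD, n = 3), 29.3 ± 12 and 37.0 ± 5.59 normalized reads, and the log2 ratios were -1.67 ± 0.29 and -1.27 ± 0.22. PABPN RIP A, at 43.1, was above PABPN RIP B and C, at 23.2 and 21.6, and all RIP libraries were below Input C, the lowest Input library, at 72.0. *B3GALT4* overlaps *WDR46* on the opposite strand, and *RPS18*, a ribosomal protein gene, ends 612 bases upstream of it on the same strand. The baseMean of *RPS18* was 22340 with PABPN RIP and 75110 with PABPC RIP, against 70.1 and 63.8 for *B3GALT4*. The part of reads from these neighbors was not tested.

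The other 4 solved genes were lower in PABPC RIP by 6.54-fold to 11.6-fold, against 2.12-fold to 3.02-fold in PABPN RIP. *LGR6*, a receptor for the R-spondin ligands of WNT signaling, lies at chr1:202193799-202319781 on the plus strand. It had 243, 179 and 141 reads in Input, 66, 48 and 98 in PABPN RIP, and 36, 8 and 7 in PABPC RIP. PABPC RIP A, at 32.1 normalized reads, was far above PABPC RIP B and C, at 9.08 and 8.94, yet below the lowest PABPN RIP library at 39.8. The log2 ratios were -1.59 ± 0.27 and -3.53 ± 0.45, and without PABPC RIP A the latter was -4.12. *FAM83E*, of a family of proteins that anchor casein kinases, lies at chr19:48599961-48615076 on the minus strand. It had 137, 132 and 114 reads in Input, 75, 66 and 54 in PABPN RIP, and 14, 11 and 10 in PABPC RIP. Normalized reads of *FAM83E* were 12.6 ± 0.160 in PABPC RIP, 115 ± 7.15 in Input and 52.1 ± 6.32 in PABPN RIP. With 10 to 14 reads per PABPC RIP library, the SD of 0.160 is no measure of precision. The log2 ratios were -1.14 ± 0.16 and -3.14 ± 0.21. *RPL18*, another ribosomal protein gene, ends 252 bases upstream on the same strand, with a baseMean of 10750 with PABPN RIP and 41600 with PABPC RIP.

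*CLSTN2* encodes a calsyntenin, a cadherin-like protein of the postsynaptic membrane, and is the longest of the 10 genes, at chr3:139935185-140577397 on the plus strand. It had 127, 84 and 98 reads in Input, 51, 59 and 51 in PABPN RIP, and 16, 11 and 11 in PABPC RIP. No library of one group overlapped with another group, and the log2 ratios were -1.08 ± 0.19 and -2.71 ± 0.24. *TTC34*, a tetratricopeptide repeat gene, lies at chr1:2636986-2801693 on the minus strand. It had 155, 81 and 83 reads in Input, 62, 41 and 58 in PABPN RIP, and 13, 11 and 5 in PABPC RIP. Input A, at 127 normalized reads, was well above Input B and C, at 75.5 and 79.7. The log2 ratio in PABPN RIP was -1.10 ± 0.25 with this library and -0.85 without it, which is short of 2-fold, while PABPC RIP was -3.16 ± 0.34 with it and -2.93 without it. *CLSTN2* also fell just short in PABPN RIP without Input A, at -0.98. The genes inside *CLSTN2* and *TTC34* that have a row, such as *CLSTN2-AS1* (baseMean 2.09 and 0.652), were near 0.

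**Figure D3:**
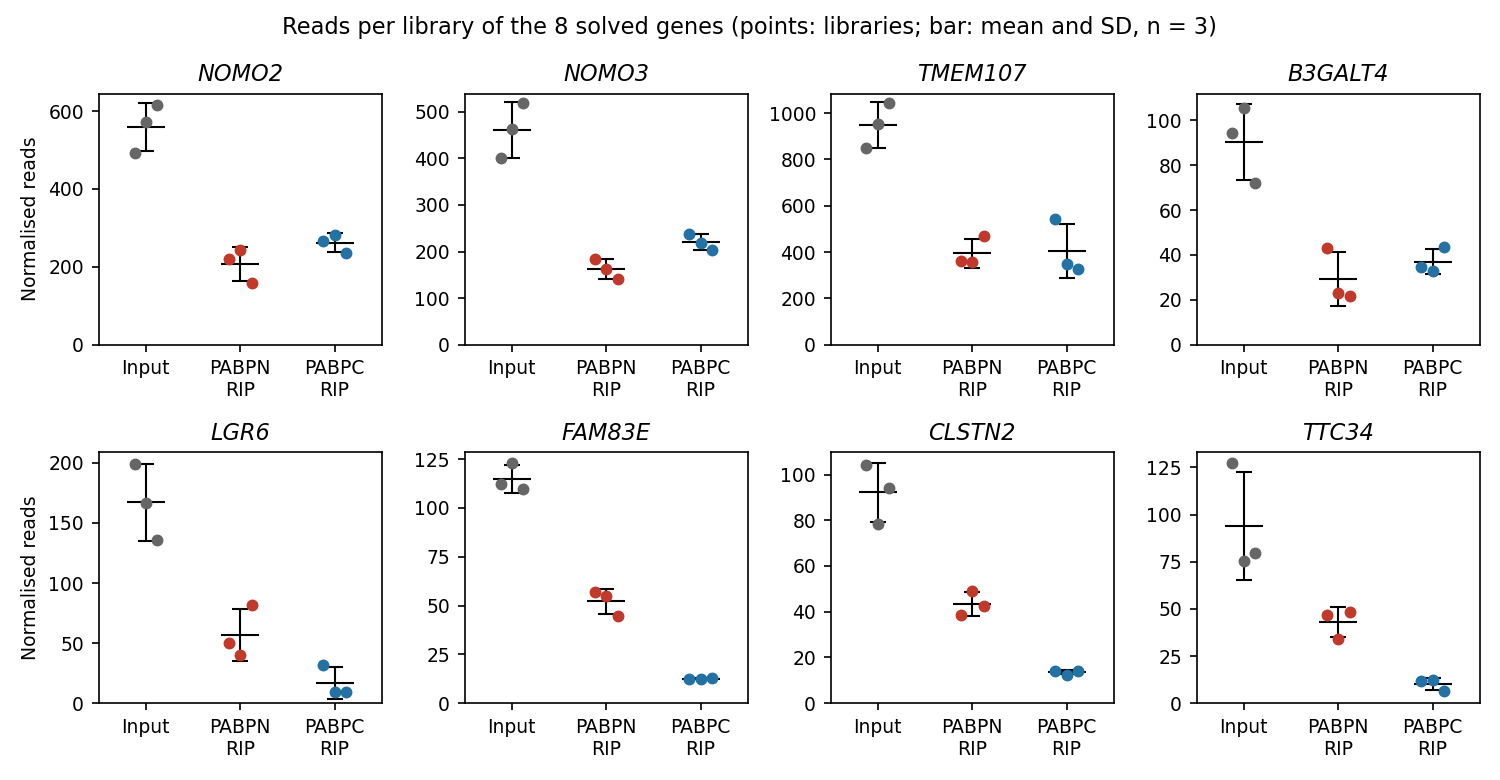
Normalized reads (y axis, from 0) of the 8 solved genes in Input (gray), PABPN RIP (red) and PABPC RIP (blue). Points are libraries and bars are mean and SD, n = 3. All RIP libraries lie below all Input libraries, as in 9.24% of all genes tested and as the choice of the genes favors, and *LGR6*, *FAM83E*, *CLSTN2* and *TTC34* are lowest in PABPC RIP.

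To place the genes among all others, every gene with counts solved and baseMean above 50 was fitted in limma and called lower at an adjusted p of at most 0.01 and a log2 ratio of -1 or below. In PABPN RIP 111 of 5762 genes were called lower (1.93%), in PABPC RIP 1467 of 5041 (29.1%), and in both 44 of 4816 (0.914%). The 8 solved genes are all among the 44, as the choice of the genes leads to, and nothing is read from that count. The median log2 ratio of the 8 genes was -1.36 in PABPN RIP and -1.99 in PABPC RIP, beside 0.16 and -0.03 over all genes tested. Of the 44 genes, 28 were not protein coding, among them 10 lncRNA, 5 tRNA, 5 misc_RNA and 3 snRNA genes. The other 16 were the 8 solved genes and 8 of 9 replication-dependent histone genes tested. The remaining histone gene, *H2BC6*, had log2 ratios of 0.27 in PABPN RIP and -0.53 in PABPC RIP. No further protein coding gene passed in both with limma, and none was 2-fold lower in both at an unadjusted p under 0.05 (0 genes). The genes had been listed for low ratios in these same libraries, so this absence follows the choice and nothing is read from it. Genes above the limit of 1000, which include most abundant mRNAs, were not part of this count.

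Among the 9 histone genes tested, of 65 such genes in the data, the median log2 ratio was -3.71 in PABPN RIP and -2.68 in PABPC RIP. No solved gene was below -1.67 in PABPN RIP. In PABPC RIP *LGR6* (-3.53), *TTC34* (-3.16), *FAM83E* (-3.14) and *CLSTN2* (-2.71) lay below the histone median, and the other solved genes lay above it. The 3 genes nearest to the limit on its inner side, by the higher of both log2 ratios, were *NOMO3* (-1.06), *CLSTN2* (-1.08) and *NOMO2* (-1.10). The 3 nonhistone coding genes nearest on its outer side were *ZNF624* (-0.91), *EVA1A* (-0.88) and *LRP1* (-0.83).

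**Figure D4:**
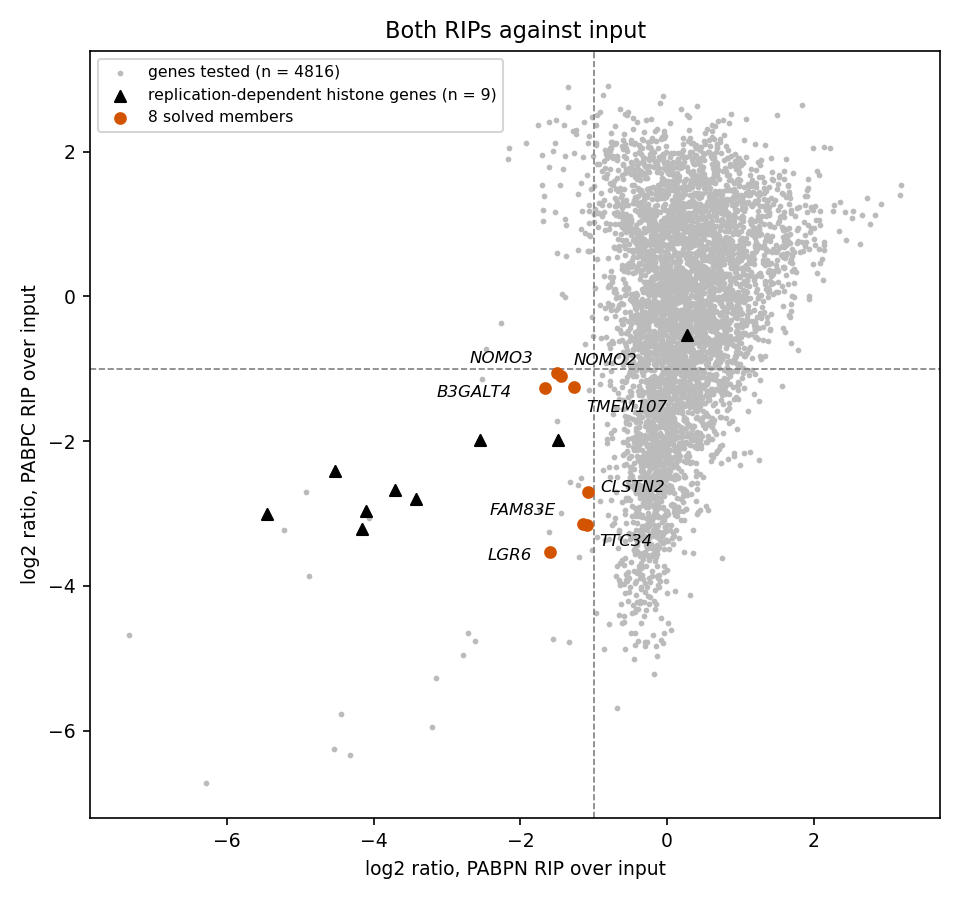
Log2 ratio of PABPN RIP (x axis) and PABPC RIP (y axis) over input for 4816 genes tested in both (gray), 9 replication-dependent histone genes (black triangles) and the 8 solved genes (orange). Dashed lines mark -1. The 8 genes lie just left of the vertical line, between -1.08 and -1.67, and from -1.06 to -3.53 in PABPC RIP.

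The 8 genes spanned a wide range of levels. By the geometric mean of both baseMean values, *TTC34* (64.7), *CLSTN2* (64.8), *B3GALT4* (66.9) and *FAM83E* (78.9) were among the lowest, with 2.32% to 7.41% of the 3104 nonhistone protein coding genes tested below them. *LGR6* (110) had 16.9% below it. *NOMO3* (353), *NOMO2* (429) and *TMEM107* (729) were in the upper part, with 60.5%, 71.5% and 99.0% below them. The 8 genes were 4 of 444 such genes with a level of 50 to 100 (0.901%), 1 of 696 from 100 to 200 (0.144%), 2 of 1329 from 200 to 500 (0.150%) and 1 of 635 from 500 to 1000 (0.157%). The median SE of the log2 ratio in PABPN RIP fell from 0.198 in the lowest of these ranges to 0.118 in the highest, while among the 8 genes it ranged from 0.133 (*TMEM107*) to 0.288 (*B3GALT4*), with *LGR6* at 0.27 and *FAM83E* at 0.163. Each baseMean averages Input with a RIP, so a choice of genes low in the RIPs by itself lowers their level and rank. The shares by range of level are affected in the same way, and nothing is read from them. A part of the level in the choice of the genes was not tested.

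The comparison of PABPN RIP with PABPC RIP was tested. It uses no Input reads of a gene, but its scale was set through the Input libraries. The 8 solved genes were chosen by ratios that used these same RIP libraries, so their p-values here are not free of that choice. Between the RIPs, 2253 of 4816 genes were higher in PABPN RIP (46.8%) and 1094 were higher in PABPC RIP (22.7%), at an adjusted p of at most 0.01 and a log2 ratio beyond 0.5. The median over all genes was 0.53, and after centering on it the numbers were 1560 and 1631, so a log2 ratio is also given relative to this median. *LGR6*, *FAM83E*, *CLSTN2* and *TTC34*, 4 of the 8 solved genes, were higher in PABPN RIP, close to the share of all genes. *FAM83E* was 4.0-fold higher (log2 ratio 2.0 ± 0.26, limma adjusted p 6.26e-05, all 3 PABPN RIP libraries above all PABPC RIP libraries, 1.48 after centering). *TTC34* was 4.19-fold higher (2.07 ± 0.35, limma adjusted p 0.000388) and *CLSTN2* was 3.10-fold higher (1.63 ± 0.27, limma adjusted p 0.000306), and both passed after centering, at 1.55 and 1.11. *LGR6* was 3.83-fold higher (1.94 ± 0.50, limma adjusted p 0.00520) but did not pass after centering (1.42, limma adjusted p 0.0257) or with median-of-ratios factors (1.37, limma adjusted p 0.0153). Without PABPN RIP A or C or PABPC RIP B or C it did not pass either (limma adjusted p 0.0136 to 0.0218), with log2 ratios of 1.64 to 2.0.

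The other 4 genes did not pass between the RIPs. The log2 ratio of *TMEM107* was -0.01, with a 95% interval of -0.46 to 0.44, and that of *B3GALT4* was -0.39, with an interval of -1.10 to 0.32. *NOMO2* had -0.35, with an interval of -0.75 to 0.06 (limma adjusted p 0.101), and *NOMO3* had -0.44, with an interval of -0.78 to -0.09 (limma adjusted p 0.0245). Relative to the median of all genes both *NOMO* genes were lower in PABPN RIP. After centering *NOMO2* stood at -0.88 (limma adjusted p 0.00142) and *NOMO3* at -0.96 (limma adjusted p 0.000282), so for these genes the call depends on the scaling. *B3GALT4* and *TMEM107* were at -0.91 and -0.54 after centering (limma adjusted p 0.0236 and 0.0320). Under median-of-ratios factors *TMEM107* passed as well, at -0.60 (limma adjusted p 0.00611).

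**Figure D5:**
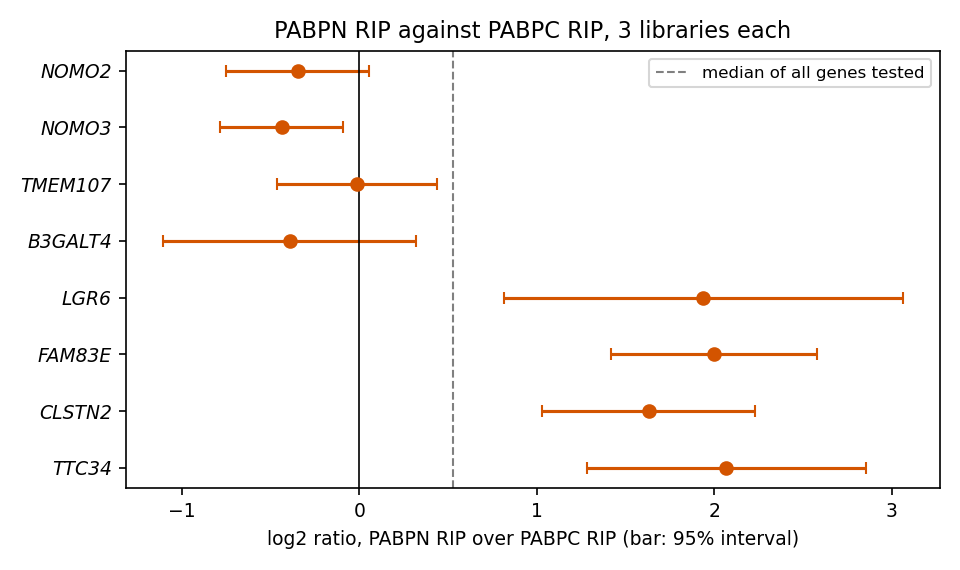
Log2 ratio of PABPN RIP over PABPC RIP (x axis) of the 8 solved genes, with 95% intervals from limma, 3 libraries per group. The solid line is 0 and the dashed line is the median of all genes tested, 0.53. *LGR6*, *FAM83E*, *CLSTN2* and *TTC34* lie to the right of both lines, and the other 4 lie at or below 0.

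Relatives of the 10 genes by function were taken from fixed lists. All 61 relatives had rows in both tables, of which 38 were above the limit or not solved and 9 were below the level tested. Of the remaining genes, 1 of 13 was lower in PABPN RIP, 3 of 12 were lower in PABPC RIP, and 0 of 11 were lower in both (limma). Over all genes tested these shares were 1.93%, 29.1% and 0.914%, so nothing particular to the relatives is read from these counts. At an unadjusted p under 0.05, 1 relative, *FAM83B*, was lower in both by any amount. *LGR5*, the nearest relative of *LGR6* and also an R-spondin receptor, fell in PABPC RIP (log2 ratio -1.26 ± 0.12, limma adjusted p 6.24e-06) but not in PABPN RIP (0.31 ± 0.09, adjusted p 0.0231). *FAM83B* fell in PABPC RIP (-1.73 ± 0.12, limma adjusted p 1.37e-06), with -0.42 ± 0.10 in PABPN RIP (adjusted p 0.0101). Among the genes of ganglioside synthesis, *ST8SIA5*, a sialyltransferase, fell in PABPC RIP (-1.25 ± 0.16, limma adjusted p 4.83e-05), while *B3GALT1*, a galactosyltransferase of the family of *B3GALT4*, rose there (1.51 ± 0.14, limma adjusted p 7.12e-06). *TMEM70*, which like *TMEM242* serves the assembly of ATP synthase, fell in PABPN RIP (-1.003 ± 0.15, limma adjusted p 0.00105) and rose in PABPC RIP (1.52 ± 0.18, adjusted p 3.91e-05). The 2 genes of the ciliary transition zone tested in both, *TMEM216* and *B9D2*, rose in PABPC RIP (1.64 ± 0.11 and 1.27 ± 0.16, limma adjusted p 9.26e-07 and 4.87e-05), where *TMEM107* was low. All 6 partners of the *NOMO* proteins in the translocon list were above the limit or not solved, and their pooled means gave a higher PABPC RIP than PABPN RIP mean in 6 of 6 genes. The same held for 6 of 14 genes of the ciliary transition zone, 0 of 4 of R-spondin signaling, 3 of 4 of the FAM83 family, 2 of 2 calsyntenins, 6 of 9 of ganglioside synthesis and 7 of 10 assembly factors. Over all lists this was 30 of 49 relatives (61.2%), beside 53.5% of 12452 protein coding genes.

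The ends of the transcripts were searched for the poly(A) signals AATAAA and ATTAAA, which direct cleavage and tail addition. Within the last 50 bases of the canonical transcript, on its own strand, 9 of the 10 genes held either motif, as did 77.4% of 20046 protein coding transcripts and 4.35% of 69 transcripts of replication-dependent histone genes. *TMEM242* had ATTAAA, *TMEM107* had neither in this window, and the other 8 genes had AATAAA. A match here is a run of letters in the annotation and does not show where the RNA ended in these cells.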

How the data were processed

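The authors aligned reads to hg38 with STAR, counted reads in introns and exons together with featureCounts 2.0.2 on an annotation derived from GENCODE with NCBI genes added, removed stretches shared by overlapping genes, and compared each RIP with input in DESeq2. They removed genes with transcription from upstream, separately for each RIP. The signal deposited by the authors, baseMean, is the mean over 6 libraries of counts divided by size factors. The authors' columns of fold change, its standard error, test statistic, p-value and adjusted p were not used. The gene length column was read as exonic length.

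Read counts per library were solved from baseMean. Each value is a sum of 6 whole counts over size factors, printed to 15 significant digits. The size factors were found from genes with a single read, and the Input libraries from 1308 such genes seen in both tables. Counts of 9 libraries were then solved from the 2 values of each gene by lattice reduction (SymPy 1.14.0, Numba 0.67.0), where both were below 1000 and a single solution lay in the searched range. This gave 26283 of 26777 genes (98.2%). Below 500 all but 1 gene was solved, and from 500 to 1000 72.0%. In data simulated for this step, 5915 of 5915 solutions were right, of 5947 genes. The simulated means came from genes already solved, with a spread between libraries set in advance, so genes unlike these are not covered. A wider search served as a check on single solutions, and where it did not finish the first solution was kept. Of 15753 genes with baseMean above 50 in either table, 9272 were above the limit.

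Groups came from the sample titles, but a solved library has no replicate number. Counts divided by the authors' size factors, plus a pseudocount of 0.5, were log2-transformed and fitted with limma 3.58.1 (lmFit, eBayes with trend) in R 4.3.3, with Benjamini-Hochberg adjustment over all genes tested. Fold changes understate the change of genes with few reads. The scale between tables was set by the shared Input libraries (factor 0.855). The fit was tested on simulated counts. Named were the 10 genes, genes overlapping or next to them, the 3 genes on each side of the 2-fold limit, and relatives from fixed lists with outlying values. The genes and lists were chosen with earlier results of these data known. Coordinates come from GENCODE release 44 on hg38, an annotation later than that of the authors. Windows were compared by a 64-bit hash over chromosomes 1 to 22, X, Y and M. The number of libraries, 3 per group, limits the precision. Alternatives were other scaling, another pseudocount, other filters, voom, other cut-offs, tables solved alone, and leaving out each library.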

Additional observations from a re-analysis of the deposited data

How the results depend on the processing

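Leaving out each library gave 80 to 117 genes lower in PABPN RIP (111 with all), 1420 to 1531 lower in PABPC RIP (1467), 33 to 46 lower in both (44) and 3034 to 3410 that differed between the RIPs (3347). The median log2 ratio of the 8 solved genes ranged from -1.39 to -1.28 in PABPN RIP and from -2.11 to -1.92 in PABPC RIP, and 3 or 4 of them differed between the RIPs, with *LGR6* the gene lost. *TMEM107* between the RIPs ranged from -0.15 to 0.21. All 8 genes stayed at least 2-fold lower in both RIPs except *TTC34* and *CLSTN2* without Input A, *NOMO3* without Input C (-0.97 in PABPC RIP) and *TTC34* without PABPN RIP B (-0.94 in PABPN RIP). Median-of-ratios factors over 9 libraries gave 262 genes lower in PABPN RIP, 67 in both, and medians of -1.66 and -1.72, and left *B3GALT4* (-0.998), *TMEM107* (-0.98), *NOMO2* (-0.82) and *NOMO3* (-0.78) short of 2-fold in PABPC RIP. Scaling by the total of recovered reads gave 188 genes lower in PABPN RIP and a median of -1.57, and *NOMO3* then passed between the RIPs (-0.61). Centering gave a median of -1.51 in PABPN RIP. Genes higher in PABPN RIP made up 67.3% of the calls between the RIPs, 48.9% after centering and 47.3% with median-of-ratios factors. Without the filter on baseMean the counts were 289, 3878, 158 and 6942. With baseMean above 200 they were 33, 566, 14 and 1489, and of the 3 genes then tested (*TMEM107*, *NOMO2*, *NOMO3*) the median in PABPC RIP was -1.10 and 0 differed between the RIPs. A log2 cut-off of -0.5 gave 285 genes lower in PABPN RIP and 110 in both. Other cut-offs, voom and a pseudocount of 2 changed none of these counts by over 1.5 times. Tables solved alone gave the same values for *FAM83E*, *TTC34*, *CLSTN2* and *B3GALT4* in both tables and *LGR6* in the PABPC table. The values of the others rest on both tables together: alone, *LGR6* had 9 solutions in the PABPN table, and *TMEM107*, *NOMO2* and *NOMO3* had 235 to 547 in searches that did not finish, which had not reached the joint solution for *TMEM107* and *NOMO2* in the PABPN table. Summing all 3 *NOMO* genes was not run, since *NOMO1* was not solved. No paired analysis was possible because the solved libraries carry no replicate number.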
